A study of Mus musculus with 2 samples.

Results

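The potassium channel genes of the mouse were described in the embryonic heart at day 12.5, taken as every protein-coding gene whose symbol starts with Kcn. There were 94 such genes among 22028 protein-coding genes and 55536 named genes of the M21 annotation, and all 94 were kept whatever their level. Each library was made from 10 ng of RNA of whole hearts of strain B6NCrl, male and female embryos pooled, copied from its polyA tails and fragmented by Nextera tagmentation with ERCC spike-in RNAs added, and the 2 libraries are biological replicates 1 and 2 of a single group. The study has no second condition, so levels, ratios between genes and differences between the libraries are described. Both libraries carry the same donor identifier and separate biosample identifiers, and nothing else in the labels says how the hearts were divided, so every p-value concerns these samples only. Expected counts, the estimated reads of a gene, summed to 35520161 in replicate 1 and 32577548 in replicate 2.

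The tissue label was checked against marker genes. All 8 heart muscle markers were detected, with a summed level of 35081 and 35416 TPM in replicates 1 and 2, where TPM is a level per transcript length, scaled to the same total in each library. Marker lists named for other cells were also read, without a test of which cells the RNA came from. Endothelial markers were detected in 4 of 4 and red cell markers in 4 of 4. Smooth muscle markers were detected in 3 of 4, with Myh11 at 0.58 and 1.37 TPM. Neural crest and neuron markers were detected in 3 of 6, with Sox10 and Snap25 under 1 TPM and a list sum of 13.3 and 12.0 TPM in replicates 1 and 2.

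Potassium channels let potassium ions leave or enter a cell through a pore, and in heart muscle they set the resting potential and end each action potential. Voltage-gated channels (Kcna, Kcnb, Kcnc, Kcnd, Kcnh, Kcnq and the silent subunits Kcnf, Kcng, Kcns and Kcnv) open on depolarization. Inward rectifiers (Kcnj) and 2-pore channels (Kcnk) act around the resting potential, and calcium- or sodium-activated channels (Kcnma, Kcnn, Kcnt, Kcnu) respond to internal ions. Accessory proteins (Kcne, Kcnab, Kcnip, Kcnmb and Kcnrg) have no pore of their own and change how the pore-forming subunits behave.

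Most potassium pores are lined by a short filter in which a tyrosine or a phenylalanine stands between glycines. Where a gene has the codons of this filter, a transcript whose coding sequence lacks them lacks that part of the pore. A search in frame on the coding strand for GGNTATGGN, GGNTACGGN, GGNTTTGGN or GGNTTCGGN, in the longest coding sequence of each gene, found a match in 77 of 77 pore-forming members and in 0 of 17 accessory members. Only the coding strand was searched, and 13.2% of 21951 coding genes hold at least 1 of them in their longest coding sequence. Of the 14 Kcnk genes, whose proteins carry a pair of pore loops, 11 had at least 2 matches. Kcnk1, Kcnk6 and Kcnk7 had 1 match each, so in these genes the search marks at most 1 loop of the pair. A second match was not particular to Kcnk: Kcnj2, Kcnj12, Kcnq3 and Kcnh4, whose proteins carry a single pore loop, also had 2, so a match alone does not mark a filter. The coding sequence around the match, 45 bases on the coding strand with the 9 bases of the match in capitals, is given below for a detected member of each pore-forming subfamily that has one, the highest except in Kcng and Kcnn, where Kcng1 and Kcnn4 are shown in place of Kcng2 and Kcnn2, with both filters of Kcnk3 and both members of the ATP-sensitive pair Kcnj11 and Kcnj8.
Kcna5: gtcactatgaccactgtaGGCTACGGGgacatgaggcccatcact
Kcnc2: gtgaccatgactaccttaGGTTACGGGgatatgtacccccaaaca
Kcnd2: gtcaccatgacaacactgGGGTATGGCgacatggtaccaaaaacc
Kcng1: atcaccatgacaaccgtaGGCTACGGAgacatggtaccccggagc
Kcnq1: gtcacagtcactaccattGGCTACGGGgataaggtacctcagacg
Kcnh2: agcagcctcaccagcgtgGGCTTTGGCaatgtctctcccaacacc
Kcnn4: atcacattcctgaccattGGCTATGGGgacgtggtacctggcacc
Kcnj5: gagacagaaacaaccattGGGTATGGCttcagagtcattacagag
Kcnj11: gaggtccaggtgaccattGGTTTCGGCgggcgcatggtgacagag
Kcnj8: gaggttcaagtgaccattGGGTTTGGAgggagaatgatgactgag
Kcnk3, first filter: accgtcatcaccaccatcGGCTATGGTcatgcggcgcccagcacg
Kcnk3, second filter: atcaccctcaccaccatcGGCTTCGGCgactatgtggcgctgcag

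On mm10 these windows lie at chr6:126533727-126533771 on the minus strand in the only exon of Kcna5, at chr10:112456217-112456261 on the plus strand in exon 3 of Kcnc2, and at chr2:168262623-168262667 on the minus strand in exon 3 of Kcng1. Those of Kcnq1 (chr7:143191420-143191464, plus strand, exon 7), Kcnh2 (chr5:24325537-24325581, minus strand, exon 7) and Kcnn4 (chr7:24379186-24379230, plus strand, exon 4) each lie within an exon too. Among the inward rectifiers, the window of Kcnj5 is at chr9:32322541-32322585 (minus strand, exon 3), that of Kcnj11 at chr7:46099478-46099522 (minus strand, exon 1) and that of Kcnj8 at chr6:142566430-142566474 (minus strand, exon 3). The windows of Kcnd2 (chr6:21217394-21714159) and of the first Kcnk3 filter (chr5:30588581-30621916), both on the plus strand, are joined across the intron between exons 1 and 2, so that the filter codons themselves are split by a splice junction. The second Kcnk3 filter lies at chr5:30622190-30622234 in exon 2. The middle codon of the capitals encodes phenylalanine in Kcnh2, in Kcnj11, in Kcnj8 and in the second filter of Kcnk3, and tyrosine in the others shown. All 12 sequences come from the GENCODE M21 transcripts.

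Detection was set at 1 TPM or more in both libraries, a level that 36 of the 94 genes reached. Over all protein-coding genes 56.6% were detected by the same rule. Of the others, Kcnt2 reached 1 TPM in a single library, and 57 stayed under 1 TPM in both. A level of 10 TPM in both libraries was reached by 7 genes, 29 lay between 1 and 10 TPM, and 19 were under 0.1 TPM in both. The detected members had a median of 3.60 TPM, against a median of 19.1 TPM for all detected protein-coding genes. Together the 94 genes held 341.57 and 330.63 TPM in replicates 1 and 2, a mean of 336.1 ± 7.74 TPM (SD, n = 2). Their share of all counts was 0.0607% in replicate 1 (95% Clopper-Pearson interval 0.0599 to 0.0615%) and 0.0592% in replicate 2 (0.0583 to 0.0600%). In a whole organ, fewer cells of a type and less RNA per cell cannot be told apart, and this holds for every level given here.

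The family was uneven. Kcne1 and Kcng2 alone held 31.7% of its summed TPM, and the 6 highest genes held 63.9%. The order of the highest members by mean TPM was Kcne1, Kcng2, Kcnk3, Kcnh2, Kcnj5, Kcne1l and Kcnq1, and among these the ranges of Kcnj5 and Kcne1l overlapped between the libraries while the other neighbours in the order stood apart. In transcripts with the filter codons alone, Kcng2 stood at 30.73 and 31.69 TPM in replicates 1 and 2. Kcnk3 was then above Kcng2, at 33.32 and 33.83 TPM. Further down the order became uncertain: over the 36 detected genes, 21 of 35 neighbouring ranks had overlapping ranges. From Kcne3 down to Kcna4, each neighbour overlapped the next.

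**Figure D1:**
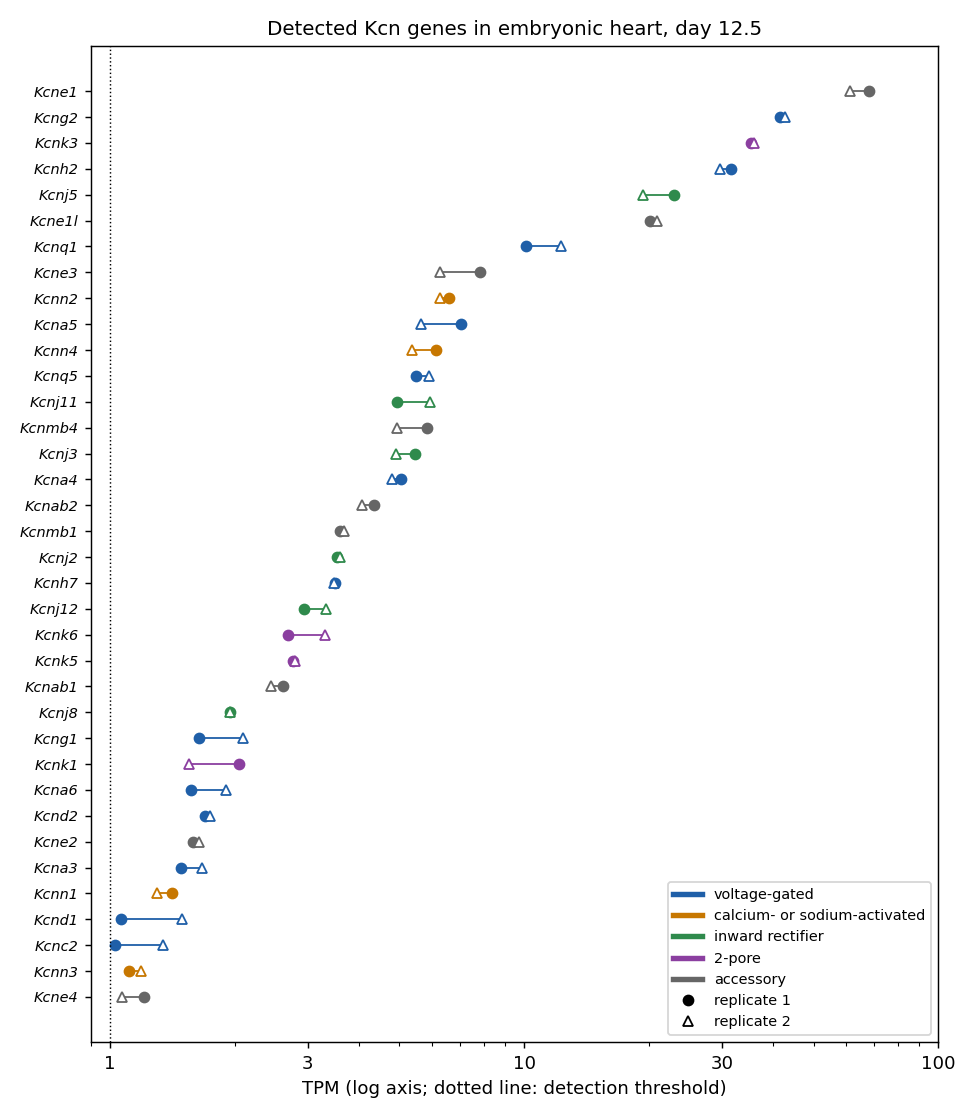
Level of each of the 36 detected potassium channel genes in replicate 1 (circle) and replicate 2 (triangle), in TPM on a log axis, ordered by the mean and coloured by class; the dotted line is the detection threshold of 1 TPM. The 7 genes above 10 TPM come from 4 classes, and 29 genes lie between 1 and 10 TPM.

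By class, voltage-gated genes held 35.3% of the family's TPM (118.5 ± 1.14 TPM, SD, n = 2, with 13 of 40 genes detected). Accessory genes followed with 34.1% (114.6 ± 6.69 TPM, 9 of 17 detected). The 2-pore genes held 13.3% (44.6 ± 0.559 TPM, 4 of 14 detected) and inward rectifiers 12.6% (42.3 ± 2.05 TPM, 6 of 15 detected). Calcium- or sodium-activated channels held 4.79% (16.1 ± 0.693 TPM, 4 of 8 detected). The accessory sum, 119.3 and 109.9 TPM in replicates 1 and 2, overlapped the voltage-gated sum, 117.7 and 119.3 TPM. The 2-pore sum, 44.2 and 45.01 TPM, stood just above the inward rectifier sum, 43.8 and 40.9 TPM. Of 21 subfamilies, 12 had a detected member, Kcne and Kcnn were detected whole, and 9 subfamilies with 17 genes had none. On the M4 annotation Kcnn was not whole, as Kcnn1 fell under the threshold.

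**Figure D2:**
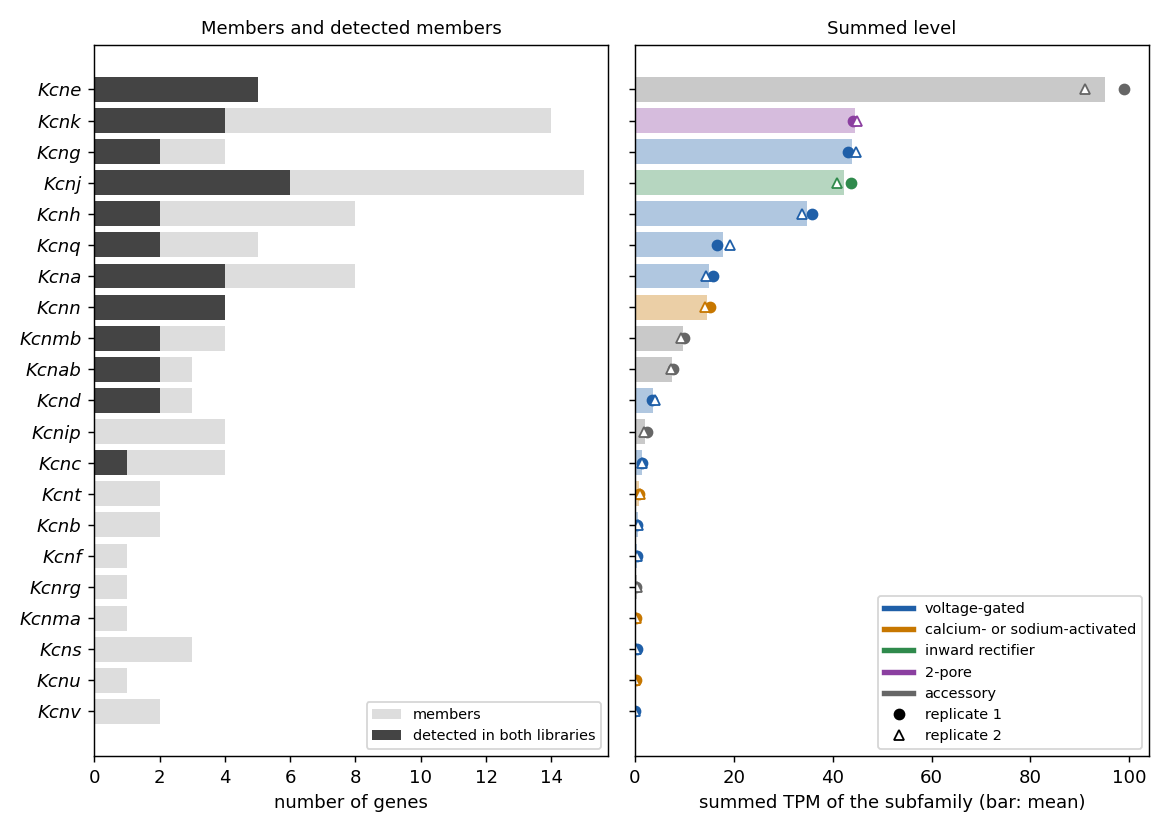
Left, number of genes in each subfamily (light bars) and number detected in both libraries (dark bars). Right, summed TPM of the subfamily in replicate 1 (circle) and replicate 2 (triangle) with the mean as a bar, coloured by class. The 5 genes of Kcne hold the highest sum, and the 2 largest subfamilies by number, Kcnj with 15 and Kcnk with 14 genes, hold 42.3 and 44.6 TPM.

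Among voltage-gated channels, the highest gene encodes a silent subunit. Kcng2 (ENSMUSG00000059852, chromosome 18, 80294546 to 80364254), whose protein forms no channel alone and modifies partners of the Kcnb subfamily, stood at 41.41 and 42.68 TPM in replicates 1 and 2 (2111 and 1969 counts). Both libraries gave nearly the same level. Kcnb2, which encodes a delayed rectifier of that subfamily, was low in both, at 0.31 and 0.45 TPM (44 and 56 counts). A second silent subunit gene, Kcng1, stood at 1.64 and 2.10 TPM, higher in replicate 2, and the other Kcng genes were at or under 0.02 TPM. Of the remaining silent subunit genes, Kcnf1 stood at 0.39 and 0.43 TPM, Kcns3 at 0.30 and 0.06 TPM, Kcns1 at 0.14 and 0.12 TPM, and Kcnv2 at 0.08 and 0.12 TPM, while Kcns2 and Kcnv1 had no count.

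Kcnh2 (ENSMUSG00000038319, chromosome 5, 24319589 to 24351604), which encodes the pore of the rapid delayed rectifier current IKr, stood at 31.67 and 29.75 TPM in replicates 1 and 2. Kcnh7, a related gene known mainly from the nervous system, stood at 3.50 and 3.48 TPM. The level of Kcnh7 was the same in both libraries, but most of its TPM, though not of its counts, lay in transcripts without the filter codons, as described with the transcripts. The other 6 Kcnh genes were at or under 0.43 TPM in each library.

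Kcnq1 (ENSMUSG00000009545, chromosome 7, 143106362 to 143427042), the pore of the slow delayed rectifier current IKs, stood at 10.08 and 12.29 TPM in replicates 1 and 2, from 662 counts in each. Beside these equal counts, the effective length of Kcnq1 was 2662 bases in replicate 1 and 2414 bases in replicate 2, and the counts of all genes summed to 34248993 in replicate 1 and 31394912 in replicate 2. Kcnq5, which encodes a channel of the M-current type, stood at 5.48 and 5.90 TPM. Kcnq3, a partner in channels of the same type, was not detected, at 0.28 and 0.26 TPM.

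In the Kcna subfamily, 4 of 8 genes were detected. Kcna5 (ENSMUSG00000045534, chromosome 6, 126532551 to 126535412), the pore of the ultrarapid delayed rectifier, stood at 7.04 and 5.64 TPM in replicates 1 and 2. Kcna4, a fast-inactivating channel that contributes to transient outward current, stood at 5.05 and 4.79 TPM. Kcna6 stood at 1.57 and 1.91 TPM, and Kcna3, best known from lymphocytes, at 1.48 and 1.67 TPM. The libraries placed Kcna5 and Kcna4 above the others, and the ranges of Kcna6 and Kcna3 overlapped. Kcna2, which is on the list for slow and ultrarapid delayed rectifiers, had 5 counts in replicate 1 and none in replicate 2, and Kcna1, Kcna7 and Kcna10 were at or under 0.41 TPM.

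The Kcnd genes encode pores of the fast transient outward current. Kcnd2 stood at 1.70 and 1.74 TPM in replicates 1 and 2, and Kcnd1 at 1.06 and 1.49 TPM. Kcnd3 stayed below the threshold at 0.73 and 0.80 TPM, although it had 100 and 88 counts. In the Kcnc subfamily Kcnc2, which encodes a fast delayed rectifier, was the single detected gene, at 1.03 and 1.34 TPM. On the M4 annotation Kcnc2 fell under the threshold, with 0.67 and 0.76 TPM in replicates 1 and 2, at 97 and 99 counts. Kcnc1 and Kcnc4 were at or under 0.18 TPM.

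Accessory genes supplied the highest level of the whole family. Kcne1 (ENSMUSG00000039639, chromosome 16, 92345982 to 92359468), the single-span partner that slows Kcnq1 into the IKs current, stood at 68.22 and 61.07 TPM in replicates 1 and 2 (1705 and 1462 counts). Kcne1l (ENSMUSG00000090122, chromosome X, 142304752 to 142306294), its X-linked relative, stood at 20.13 and 20.95 TPM. Kcne3, which holds Kcnq1 open in epithelia, stood at 7.83 and 6.26 TPM. Kcne2, a partner of Kcnh2 and other pores, stood at 1.59 and 1.64 TPM, and Kcne4 at 1.21 and 1.07 TPM. All 5 Kcne genes were therefore detected, and Kcne1 was the highest in both libraries.

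Beta subunits of the Kcna channels are encoded by the Kcnab genes. Kcnab2 stood at 4.35 and 4.07 TPM, Kcnab1 at 2.61 and 2.45 TPM, and Kcnab3 at 0.68 and 0.76 TPM. The order of these genes was the same in both libraries. The Kcnip genes, whose calcium-binding proteins bring Kcnd channels to the surface, were all under 1 TPM by the TPM used throughout. The highest, Kcnip3, stood at 0.93 and 0.91 TPM, Kcnip4 at 0.63 and 0.40 TPM, Kcnip1 at 0.42 and 0.19 TPM, and Kcnip2, the heart's best-known member, at 0.44 and 0.28 TPM from 24 and 10 counts. By the deposited posterior mean the order differed, with Kcnip2 at 1.27 and 1.08 TPM and Kcnip3 at 1.04 and 1.00 TPM, both at or past the threshold. Kcnrg, which encodes a soluble regulator of Kcna channels, stood at 0.31 and 0.43 TPM.

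Kcnj5 (ENSMUSG00000032034, chromosome 9, 32314707 to 32344350) led the inward rectifiers at 23.03 and 19.33 TPM in replicates 1 and 2. With Kcnj3, at 5.46 and 4.90 TPM, it encodes the channel that acetylcholine opens through G proteins in atrial and nodal cells. Kcnj5 was higher in replicate 1 by more than its counting error, as tested between the libraries. Kcnj11, the pore of the ATP-sensitive channel of heart muscle, stood at 4.93 and 5.93 TPM, and Kcnj8, its counterpart known from vessels, at 1.95 TPM in both.

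The strong inward rectifiers of the resting current IK1 were low. Kcnj2 stood at 3.53 and 3.60 TPM in replicates 1 and 2 (465 and 429 counts), and Kcnj12 at 2.94 and 3.33 TPM (159 and 163 counts). The other members of the list, Kcnj14 at 0.55 and 0.49 TPM and Kcnj4 at 0.32 and 0.11 TPM, were not detected. Among the other undetected Kcnj genes the highest value was 0.84 TPM, for Kcnj15 in replicate 1. Kcnj13 shows how little a TPM can rest on: it was listed at 0.14 and 0.63 TPM in replicates 1 and 2, with 4.05 and 2.27 expected counts, at effective lengths of 1171 and 162 bases.

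Of the 2-pore genes, Kcnk3 (ENSMUSG00000049265, chromosome 5, 30588170 to 30625271), an acid-sensitive background channel, stood far above the rest at 35.32 and 35.95 TPM in replicates 1 and 2 (3071 and 2822 counts). It held 79.9% of the subfamily's TPM. Kcnk6 stood at 2.69 and 3.31 TPM, Kcnk5, an alkaline-activated channel, at 2.76 and 2.79 TPM, and Kcnk1 at 2.05 and 1.55 TPM. Kcnk6 was higher in replicate 2 and Kcnk1 in replicate 1, and the ranges of Kcnk6 and Kcnk5 overlapped. Kcnk2, a stretch-sensitive channel described in adult heart muscle, stood at 0.35 and 0.70 TPM from 26.5 and 20 counts. The other 9 Kcnk genes were at or under 0.36 TPM.

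Small and intermediate conductance calcium-activated channels were all detected. Kcnn2 (ENSMUSG00000054477, chromosome 18, 45268860 to 45686024) stood at 6.57 and 6.27 TPM in replicates 1 and 2, and Kcnn4, the intermediate conductance channel also known from red cells, at 6.14 and 5.35 TPM. Kcnn1 stood at 1.41 and 1.30 TPM and Kcnn3 at 1.11 and 1.19 TPM. Kcnn1 was under the threshold on the M4 annotation, at 0.59 and 0.68 TPM. Kcnma1, the pore of the large conductance channel, stood at 0.33 and 0.29 TPM, from 21.1 and 11 counts. Its beta subunits were higher than the pore: Kcnmb4 stood at 5.84 and 4.94 TPM and Kcnmb1, known from smooth muscle, at 3.59 and 3.68 TPM. Kcnmb2 was at 0.48 and 0.72 TPM and Kcnmb3 at 0.05 and 0.03 TPM. Of the sodium-activated and related genes, Kcnt2 stood at 0.82 and 1.05 TPM, Kcnu1, known from sperm, at 0.21 and 0.15 TPM, and Kcnt1 had a single count in replicate 2.

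Genes grouped by the cardiac current they serve fell into 10 lists, and 5 of these had every gene detected: IKr, IKs, the ATP-sensitive, the acetylcholine-activated and the small conductance list. On M4 the small conductance list was not whole, with Kcnn1 at 0.59 and 0.68 TPM in replicates 1 and 2. The other whole lists hold 2 genes each, and lists of other genes were not counted. The IKs list (Kcnq1 and Kcne1) summed to 75.8 ± 3.49 TPM (SD, n = 2), the background 2-pore list to 41.0 ± 0.778 TPM, the IKr list (Kcnh2 and Kcne2) to 32.3 ± 1.32 TPM and the acetylcholine-activated list (Kcnj3 and Kcnj5) to 26.4 ± 3.01 TPM. The remaining lists lay between 6.56 and 9.34 TPM. They were IKslow with IKur at 6.56 ± 0.976 TPM, the ATP-sensitive list at 7.38 ± 0.707 TPM, IK1 at 7.44 ± 0.134 TPM, Ito at 7.77 ± 0.219 TPM, small conductance at 8.93 ± 0.233 TPM and large conductance at 9.34 ± 0.601 TPM. These last 6 sums stood within 1.5 times of one another, and those of the ATP-sensitive, IK1 and Ito lists differed by less than the spread of the ATP-sensitive sum. Some of the sums pool pores with accessory subunits, so they do not rank the pores. In the IKs list Kcne1 averaged 64.6 TPM and the pore Kcnq1 11.2 TPM, below the 30.7 TPM of the IKr pore Kcnh2. In the large conductance list the pore Kcnma1 averaged 0.31 TPM, against 5.39 TPM for Kcnmb4 and 3.64 TPM for Kcnmb1.

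Within each library, 14 pairs of related genes were set against each other as a log2 ratio of TPM, first gene over second, with a 95% interval from the counts that covers counting error only. In 13 of 14 pairs the interval lay on the same side of 0 in both libraries. Pairs of other genes were not counted, so this number is not read as a trait of these genes. Kcnq1 was below Kcnh2, with log2 ratios of -1.65 in replicate 1 (-1.78 to -1.53) and -1.28 in replicate 2 (-1.40 to -1.15), and below Kcne1, with -2.76 (-2.89 to -2.63) and -2.31 (-2.45 to -2.18). In both pairs the intervals of the libraries do not overlap, but they take effective length as fixed. Kcnq1 had 662 counts in each library, at effective lengths of 2662 and 2414 bases in replicates 1 and 2. The part of this length in the gap between the libraries was not tested. Kcnh2 exceeded Kcne2 by 4.32 in replicate 1 and 4.18 in replicate 2. Kcnj3 was below Kcnj5 by ratios of -2.08 and -1.98, and these intervals overlapped between the libraries.

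Among inward rectifiers, Kcnj11 exceeded Kcnj8 with log2 ratios of 1.34 (1.02 to 1.66) in replicate 1 and 1.60 (1.28 to 1.94) in replicate 2. Kcnj3 exceeded Kcnj2 with ratios of 0.63 and 0.44. With counts not divided by length the mean ratio of Kcnj3 over Kcnj2 was 0.098, with no order. Kcnj2 over Kcnj12 was the pair with no order, at 0.26 (0.001 to 0.53) in replicate 1 and 0.11 (-0.15 to 0.38) in replicate 2. With counts not divided by length its mean ratio was 1.47, and the pair then had an order. Of the transient outward genes, Kcnd2 exceeded Kcnd3 with ratios of 1.22 and 1.12, and Kcnip2 with 1.95 (1.34 to 2.62) and 2.64 (1.73 to 3.72). From the posterior mean TPM, Kcnd2 over Kcnip2 had a mean ratio of 0.52 and no order.

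A wide gap separated Kcnk2 from Kcnk3, with log2 ratios of -6.66 in replicate 1 and -5.68 in replicate 2. Kcnn2 exceeded Kcnn1 with ratios of 2.22 and 2.27. Kcnma1 was below Kcnmb1 with ratios of -3.44 and -3.67. The partner pair Abcc9 over Abcc8, the sulfonylurea receptors that surround Kcnj11 and Kcnj8, had ratios of 1.87 and 1.79. On M4 the mean ratio was 3.01 for Abcc9 over Abcc8, 3.40 for Kcnn2 over Kcnn1, 0.82 for Kcnj11 over Kcnj8 and -4.38 for Kcnma1 over Kcnmb1, in the same order as on M21. From the posterior mean TPM it was -4.96 for Kcnk2 over Kcnk3, -1.88 for Kcnma1 over Kcnmb1 and 0.39 for Kcnd2 over Kcnd3, also in the same order. Ratios of different genes also carry biases of length and coverage that both libraries share.

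**Figure D3:**
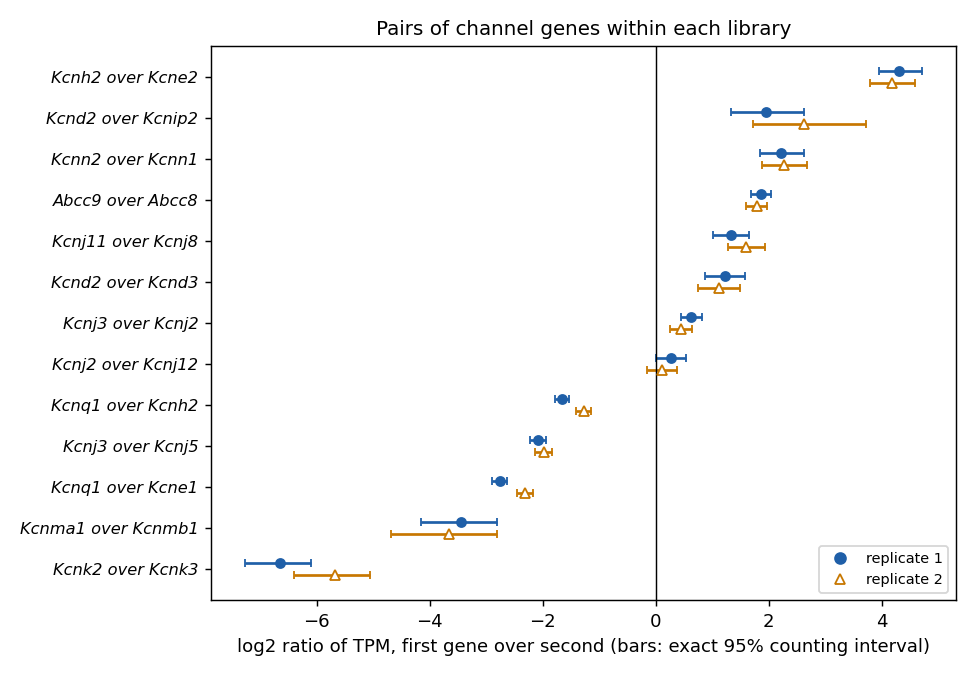
Log2 ratio of TPM, first gene over second, for 13 of the 14 pairs in replicate 1 (circle) and replicate 2 (triangle); bars are exact 95% intervals from the counts. In 12 of the pairs plotted both intervals lie on the same side of 0, 7 above and 5 below, and Kcnj2 over Kcnj12 lies at 0.26 and 0.11 with an interval that reaches 0 in replicate 2.

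Partner genes outside the Kcn family were read from a list of 18, of which 12 were detected, beside 56.6% of all protein-coding genes. Abcc9 stood at 17.76 and 18.92 TPM in replicates 1 and 2, and Abcc8 at 4.87 and 5.48 TPM. Akap9, the anchor that ties protein kinase A to Kcnq1, stood at 83.87 and 93.85 TPM. The calmodulin genes, whose protein is the calcium sensor of Kcnn channels, included Calm2 at 484.5 and 504 TPM and Calm3 at 74.4 and 65.1 TPM.

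Scaffold partners of Kcnj2 were detected as well, with Dlg1 at 17.1 and 19.0 TPM and Cav3 at 48.0 and 49.7 TPM. Rnf207, a ubiquitin ligase that acts on Kcnh2 levels, stood at 44.3 and 48.4 TPM, and Nedd4l, a ligase that acts on Kcnq1, at 53.3 and 59.6 TPM, though on the M4 annotation Nedd4l had 13.2 and 13.4 TPM. Amigo1, a partner of Kcnb channels, stood at 3.51 and 3.86 TPM. Dpp6 and Dpp10, which speed up Kcnd channels, were not detected, at 0.47 and 0.44 TPM for Dpp6 and 0.01 TPM in both for Dpp10. The Kcnma1 partners Lrrc26, Lrrc38, Lrrc52 and Lrrc55 were at or under 0.17 TPM.

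The transcripts behind each level were described for the 15 genes with a mean TPM of at least 5. In 13 of them the same transcript held at least 50% of the gene's TPM in both libraries, beside 72.1% of the protein-coding genes at that level. Kcne3 and Kcnq5 were the exceptions. For Kcne3 the highest transcript, Kcne3-201, held 33.5% in replicate 1 and 38.1% in replicate 2. For Kcnq5 it was Kcnq5-206, with 40.7 and 40.4%.

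The 2 highest genes show how short transcripts weigh in TPM. Kcne1-202, of 602 bases, held 80.2% of the Kcne1 TPM in replicate 1 and 77.8% in replicate 2, but 39.8 and 36.5% of its counts, while the longer Kcne1-201, of 3174 bases, stood at 13.53 TPM in both libraries. Both carry the same length of coding sequence, 387 bases. Kcng2-202, of 279 bases and without the filter codons, held 24.1 and 24.0% of the Kcng2 TPM and 2.10 and 2.09% of its counts. In Kcnq1, the 282-base Kcnq1-207 held 8.83% of TPM in replicate 1 and 17.9% in replicate 2, from 4 and 9 counts. The full-length Kcnq1-201 stood at 9.09 and 9.98 TPM, a smaller gap between the libraries than that of the whole gene.

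Kcnh2 was carried by Kcnh2-201, with a coding sequence of 3486 bases, at 66.3 and 69.8% of its TPM. The shorter Kcnh2-202, with 11 exons against 15 and a coding sequence of 2460 bases, held 13.0 and 10.5%. In Kcnj3 the leading transcript, Kcnj3-202, has 2 exons and a coding sequence of 705 bases, against 1503 bases in Kcnj3-201. Kcnj3-202 held 67.4% of TPM in replicate 1 and 71.0% in replicate 2, so that the full-length forms were the minority in both libraries. Kcnj5-201 held 82.6 and 85.5%, and Kcnk3-201 held 94.3 and 94.1%. The other genes with a leading transcript were Kcnj11 (Kcnj11-205, 71.8 and 65.4%), Kcnn2 (Kcnn2-205, 51.6 and 62.0%), Kcnn4 (Kcnn4-202, 53.5 and 63.2%), Kcnmb4 (Kcnmb4-201, 84.1 and 86.8%), and Kcna5 and Kcne1l, which have 1 transcript each.

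Transcripts were then counted only where their coding sequence holds every match that the search found in that gene. This includes both matches of Kcnj2 and of Kcnj12, and for accessory genes any coding sequence was enough. With these transcripts 33 of the 36 detected genes stayed at 1 TPM or more in both libraries. The genes that did not were Kcnh7, with 1.03 and 0.87 TPM in replicates 1 and 2, Kcnab1, with 0.45 and 0.96 TPM, and Kcnd1, with 0.56 and 0.83 TPM. For Kcnh7 such transcripts held 29.4 and 25.0% of TPM but 69.97 and 65.3% of counts. The Kcnh7 transcript that holds the filter codons, Kcnh7-201, has 13321 bases. In 19 of the 36 genes at least 90% of TPM lay in such transcripts in both libraries. Genes outside the family were not counted in this way. The summed TPM of all 94 genes in such transcripts was 300.9 TPM. Voltage-gated genes then stood at 94.8 TPM and accessory genes at 110.8 TPM. Transcripts annotated for nonsense-mediated decay, a route of RNA breakdown, were counted where their coding sequence holds the codons. Kcna6 stayed at 1 TPM or more through such a transcript, Kcna6-201, at 1.11 and 1.37 TPM in replicates 1 and 2.

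**Figure D4:**
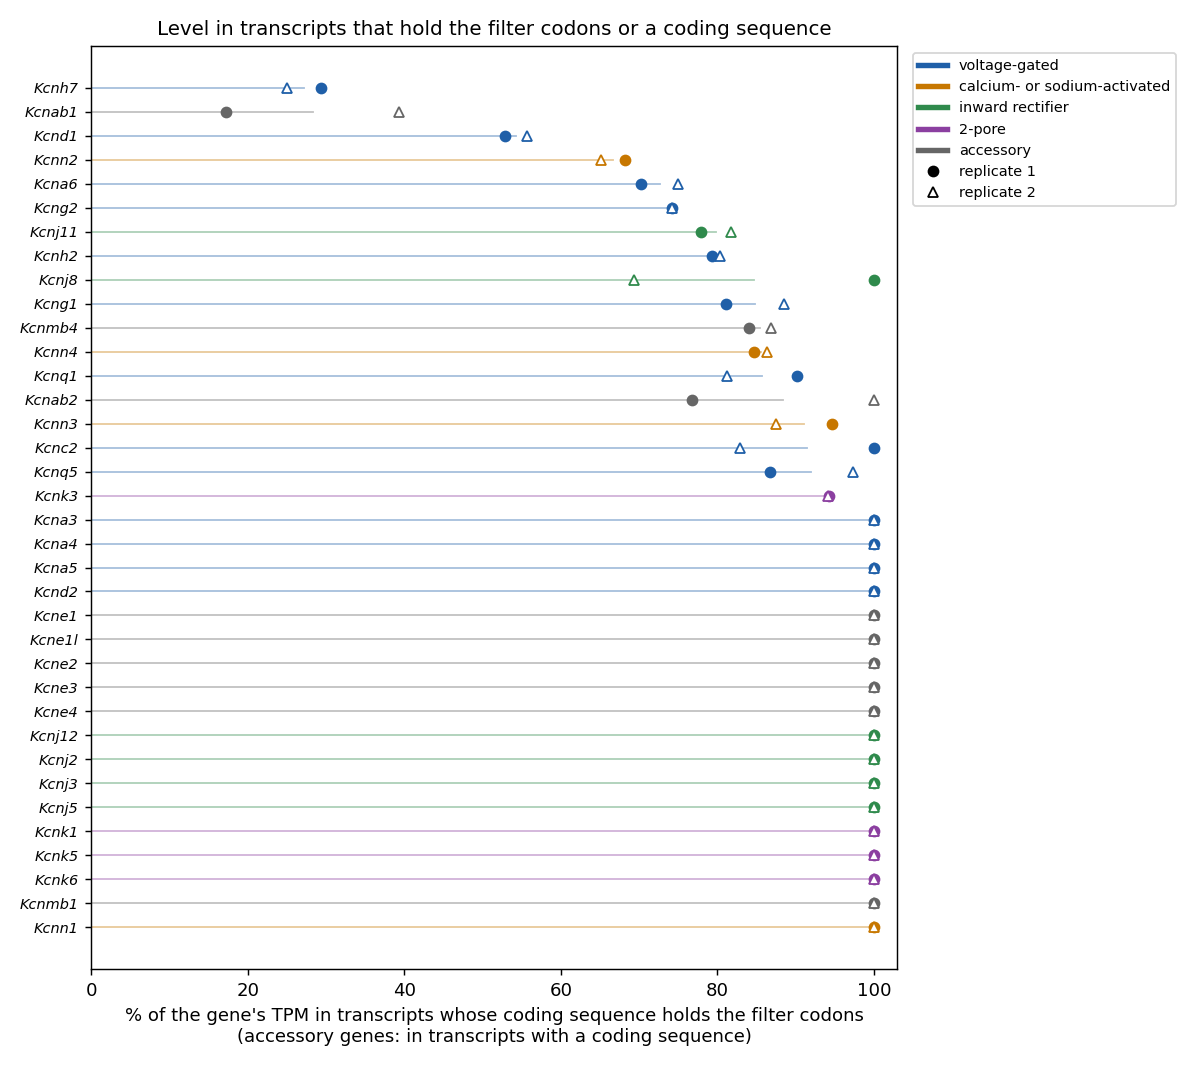
Percentage of each detected gene's TPM in the counted transcripts, in replicate 1 (circle) and replicate 2 (triangle), with a line to the mean. For pore-forming genes these are transcripts whose coding sequence holds every match to the filter codons found in the gene. For accessory genes they are transcripts with a coding sequence. Kcnh7, Kcnab1 and Kcnd1 are at the top with the lowest means, and 19 of 36 genes are at 90% or more in both libraries.

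Reads could be shared with other genes in some places. Of the 36 detected genes, 14 share exon bases with another annotated gene, 13 of them with a gene on the opposite strand, and the use of strand is not given in the sources used here. The share of genes outside the family with such an overlap was not counted. The overlap exceeded 10% of the exon bases in Kcna6 (39.6%, with Gm26673), Kcnj3 (31.1%, with Gm26794) and Kcnmb4 (20.8% with Kcnmb4os2 and 10.7% with Kcnmb4os1). Gm26673 had no count, Gm26794 had 17.3 and 12.2 counts, and Kcnmb4os2 had 18.9 and 12 counts, against 175 and 138 counts for Kcnmb4 itself. Smaller overlaps involved genes with more counts: Kcnh7 shares 4.57% with Gca, which had 917 and 839 counts against 480 and 393 for Kcnh7, and Kcng2 shares 9.10% with D330025C20Rik, which had 236 and 235 counts. Kcnq1ot1, the long antisense RNA that starts inside Kcnq1, had 6375 counts in replicate 1 and 7068 in replicate 2 (2.78 and 3.41 TPM), and shares 121 exon bases, or 2.96%, with Kcnq1. The undetected Kcnj13 shares 49.1% of its exon bases with Gigyf2, which had 2014 and 1822 counts. The deposited posterior SD of the count was at most 4.20 counts among the detected genes and 0 in 25 of them in both libraries.

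Of 10 pairs of neighbours on a chromosome with a gap of at most 200 kb, 7 had 1 gene detected and the other not, 1 had both detected and 2 had neither. The 2 with neither were Kcnj9 with Kcnj10 and Kcna2 with Kcna10, all at or under 0.01 TPM on average. Over the whole family 36 of 94 genes were detected, and Kcna1 and Kcna2 each enter more than 1 pair. Neighbouring pairs of other genes were not counted, so these numbers are not read as a trait of the family. Kcne2 and Kcne1 lie 47.9 kb apart on chromosome 16 and averaged 1.62 and 64.6 TPM. Kcnj5 and Kcnj1, 28.1 kb apart on chromosome 9, averaged 21.2 and 0.015 TPM. On chromosome 6, Kcna5 (6.34 TPM), Kcna1 (0.14 TPM) and Kcna6 (1.74 TPM) follow each other within 200 kb gaps. On chromosome 11, Kcnj16 and Kcnj2 lie 38.2 kb apart and averaged 0.005 and 3.57 TPM. Kcnmb1, at 3.64 TPM, overlaps Kcnip1, at 0.305 TPM, on the opposite strand.

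Between the libraries, the potassium channel genes were compared with an exact binomial test on the counts of replicate 1 over replicate 2, run over the 17970 genes that had 20 or more counts in the libraries together and adjusted by the Benjamini-Hochberg method. Of the 94 members 61 were tested, and 0 were called at an adjusted p under 0.05 with a log2 ratio of at least 1 in size, beside 1.45% of all genes tested. At an unadjusted p under 0.05 there were 16 members, or 26.2%, beside 22.0% of all genes. Without the fold threshold 3 members passed, beside 9.71% of all genes, and 3 also passed under each other scaling and count filter tried and on M4. Since nothing but counting error enters this test, it compares the libraries at hand and not conditions.

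Kcnj5 had 2449 counts in replicate 1 and 1879 in replicate 2, a log2 ratio of 0.27 (0.18 to 0.36; exact binomial test, Benjamini-Hochberg adjusted p = 1.36e-07). Kcna5 had 480 and 348 counts, a log2 ratio of 0.35 (0.15 to 0.55; exact binomial test, adjusted p = 0.0109). Kcnq5 had 576 and 641 counts, a log2 ratio of -0.27 (-0.43 to -0.10; exact binomial test, adjusted p = 0.0195). Kcnj5 and Kcna5 were thus higher in replicate 1 and Kcnq5 was higher in replicate 2, each by less than the fold threshold. Over the 36 detected genes the log2 ratios ran from -0.52 (Kcnd1) to 0.38 (Kcne3). The 5 tested genes with a ratio of at least 1 in size were Kcns3, Kcnj4, Kcnip2, Kcnip1 and Kcnk13, all with at most 24 counts in a library, and none passed at an adjusted p under 0.05 by the exact binomial test.

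Markers of neighbouring organs differed between the libraries. Hepatocyte markers, 5 of 6 detected, summed to 168.1 and 36.2 TPM in replicates 1 and 2, with Afp at 97.5 and 18.1 TPM. Lung and foregut markers, 1 of 4 detected, summed to 2.43 and 5.15 TPM, with Sftpc at 0 in replicate 1 and 0.91 TPM in replicate 2. Red cell markers summed to 32411 and 29074 TPM, and heart muscle markers to 35081 and 35416 TPM. The part of these cells in the ratios of Kcnj5, Kcna5 and Kcnq5 was not tested.

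**Figure D5:**
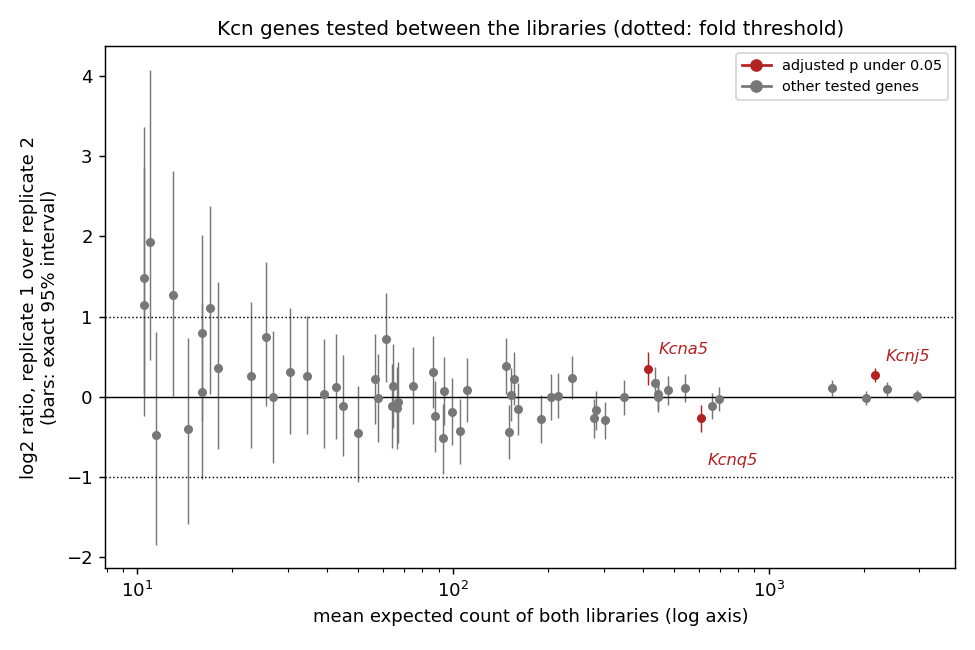
Log2 ratio of counts, replicate 1 over replicate 2, against the mean expected count on a log axis for the 61 tested potassium channel genes; bars are exact 95% intervals and dotted lines mark the fold threshold of 1. Kcnj5, Kcna5 and Kcnq5, in red, have an adjusted p under 0.05 (exact binomial test), at 0.27, 0.35 and -0.27, and the points beyond 1 are genes with few counts.

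The annotation release changed few levels. With 0.5 added to each TPM, 0 of 94 members had a log2 ratio of M21 over M4 of at least 1 in size in both libraries, beside 1.38% of 21474 protein-coding genes. The median member stood at 0.41 TPM, under the 0.5 added, and the addition holds down the ratios of low members. Kcnn1 had the highest mean ratio, 0.71, followed by Kcnc2 at 0.47 and Kcnj11 at 0.37. Without the addition, the mean TPM of Kcnn1 on M21 was 2.13 times that on M4. In Kcnj11 the counts were 279 in replicate 1 and 290 in replicate 2 on M21, against 89 and 108 on M4, while the TPM was 4.93 and 5.93 on M21 and 3.51 and 4.71 on M4. The leading M21 transcript of Kcnj11, of 3142 bases, held 95.4 and 90.8% of its M21 counts.

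Low members were not all without reads. Of the 58 undetected genes, 21 had at least 10 counts in each library, among them Kcnd3, Kcnt2 and Kcnf1, the last with 45 counts in each. At the other end, 7 genes had no count in either library: Kcna10, Kcnh8, Kcnk9, Kcnk15, Kcnk18, Kcns2 and Kcnv1. A count of 0 allows a share of up to 8.45e-06% of counts in replicate 1 and 9.21e-06% in replicate 2 (3 counts per library). The labels mention no molecular identifiers, and the intervals and this floor take in counting error only.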

How the data were processed

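RNA levels were read from tables that the authors deposited for each of 2 libraries on annotation releases M21 and M4 (mm10), per the text beside the tables. Expected counts as deposited estimate how many reads belong to each gene or transcript, and each was rounded to a whole number before testing. TPM as deposited, with a posterior mean TPM beside it, divides by effective length and is scaled to the same total in each library, spike-ins included, per the file headers and column sums. FPKM as deposited divides by effective length and by reads, per the file headers. Effective lengths in bases and a posterior SD of each count were deposited as well. Which aligner and counter were used, and whether strand was used, is not given in the sources used here.

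Members, lists, pairs and tests were chosen with earlier results of these data known. Genes were matched to GENCODE M21 by identifier. Members at 1 TPM in both libraries are given by value, and lower ones when among the 2 highest of their subfamily, on a cardiac current list, or in a subfamily with no detected member; Kcna1, Kcna7, Kcnab3, Kcnj1, Kcnj13, Kcnj15, Kcnj16, Kcnk13, Kcnmb2, Kcnmb3, Kcnc1, Kcnc4, Kcnh4, Kcnj9, Kcnj10, Kcnq3 and the genes with no count were named after their values were seen. Counts were scaled by the TMM method of edgeR 4.0.16 (R 4.3.3), 0.5 was added to scaled counts, and the exact conditional binomial test, two-sided, was run with SciPy 1.17.1. The script was tested on simulated data, drawn with counting error only and called without the fold threshold. That check does not show the error rate of the test on these libraries, which differed by more than counting error. DESeq2 1.42.0 size factors served as an alternative. A chi-square test over 20136 genes gave 4.01 per degree of freedom, and 2.66 over 70 members, so the libraries differed by more than sampling noise. This cannot tell separate samples from repeated libraries of the same RNA. The libraries were counted as 2 samples because they are labelled as biological replicates. Filter codons were found in the coding sequences of GENCODE M21 transcripts. Amino acid sequences were not used here. Values of some genes are not reported here.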

Additional observations from a re-analysis of the deposited data

How the results depend on the processing

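No paired analysis was possible because the study has a single group. The count of 36 detected genes ran from 24 (threshold of 2 TPM) to 41 (threshold of 0.5 TPM, or posterior mean TPM), with 34 on M4, 31 by FPKM and 36 to 37 when a library was left out. It was 57 when at least 10 counts in both libraries were asked for, and 33 with transcripts that hold the filter codons or a coding sequence, an alternative added after seeing the data. M4 lost Kcnn1 and Kcnc2, whose levels moved by more than 1.5 times, and the posterior mean added Kcnt2, Kcnip3, Kcnd3, Kcnj15 and Kcnip2. With that measure the summed TPM was 347.5 for all genes, 122.3 for voltage-gated, 18.8 for calcium- or sodium-activated and 45.6 for 2-pore genes. On M4 it was 123.1 for voltage-gated and 14.8 for calcium- or sodium-activated genes. With the transcripts named above it was 300.9 for all, 94.8 for voltage-gated, 12.8 for calcium- or sodium-activated and 41.9 for 2-pore genes. Leaving out a library gave 330.6 to 341.6 for all genes. The pairs with an order numbered 12 to 14; with counts not divided by length Kcnj3 over Kcnj2 lost its order (0.098), by posterior mean Kcnd2 over Kcnip2 did (0.52), and Kcnj2 over Kcnj12 gained one with counts not divided by length (1.47) and without replicate 2 (0.26). Members called between the libraries numbered 3 without the fold threshold and 0 under the other scalings, count filters and M4. A dominant transcript was held by 8 of 15 genes at 70%, and by 13 under the other alternatives. Compared by counts, 1 gene, Kcnj11, differed between annotations, against 0 by TPM at each pseudocount tried. The cause of these shifts was not tested. Depth limits the 7 genes without counts and the ratios of genes with few counts.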
